A study of Homo sapiens with 4 samples.

Results

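Matricellular proteins are secreted into the extracellular matrix but mostly regulate how cells attach, move and read growth factors, rather than bearing load. Thrombospondins and tenascin C are large multidomain glycoproteins that loosen or strengthen adhesion through integrins, CD47 and syndecans, and thrombospondin-1 can also release active TGF-beta from its latent complex. SPARC binds collagen and calcium, and fibronectin builds the provisional matrix on which many cells migrate. Osteopontin (SPP1) is an integrin and CD44 ligand that many carcinomas secrete.

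The genes followed here were picked by gene name in the deposited table, namely THBS1, THBS2, THBS3, TNC, SPARC, SPOCK1, FN1, TGFBI, POSTN and SPP1. All 10 names were found, once each, among 57659 listed genes. Expression had been measured by poly(A)-selected, single-end RNA-seq in 786-0, an established human renal cell carcinoma line, in 2 libraries of cells transfected with siRNA against SLFN5 (SLFN5 siRNA 1 and 2) and 2 libraries of cells transfected with control siRNA (Control 1 and 2). SLFN5 is a Schlafen family gene, and the series title links it to motility and invasion of these cells. The series' design text mentions triplicates, whereas 4 libraries were analysed here, and the labels do not say whether the libraries of a group are separate cultures, so the p-values measure a spread that may be technical. The sample titles carry a code that library 1 of the SLFN5 siRNA group shares with Control 1, and library 2 another that it shares with Control 2, and no label says what these codes stand for. The labels used here give neither the siRNA sequences nor the time after transfection, and effects of the siRNA on transcripts other than its target cannot be told apart from effects of lower SLFN5.

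Values are equalised counts, that is, read counts that the authors adjusted to a common library size, and a positive log2 change means a higher level after SLFN5 siRNA, given with its standard error (SE). Of the 10 genes, 3 fell (THBS1, TNC and SPARC), 2 rose (SPP1 and SPOCK1) and 3 did not pass the test (THBS3, FN1 and TGFBI) at a limma adjusted p of 0.05. THBS2 and POSTN had too few reads to test. Over all 15640 tested genes, 29.6% were called, 16.3% lower and 13.3% higher, so that 45.1% of the calls were higher. Scaled by library totals alone, 60.6% of the calls were higher. At a fall of at least 2-fold, which THBS1 and TNC passed, the share was 3.13%, and at a rise of at least 2-fold, which SPP1 passed, it was 5.16%.

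The 4 called members with an entry in the RefSeq promoter table (GRCh38.p14) are shown with their promoter window of 300 bases. Capitals mark the letters of 4 motifs searched on both strands, the AP-1 motif TGANTCA, the TEAD motif GGAATG, the SP1 motif GGGCGG and the TATA box motif TATAAA. The THBS1 window is chr15:39580829-39581128 (plus strand), that of TNC chr9:115118108-115118407 (minus strand), that of SPARC chr5:151686866-151687165 (minus strand) and that of SPP1 chr4:87975464-87975763 (plus strand).
THBS1: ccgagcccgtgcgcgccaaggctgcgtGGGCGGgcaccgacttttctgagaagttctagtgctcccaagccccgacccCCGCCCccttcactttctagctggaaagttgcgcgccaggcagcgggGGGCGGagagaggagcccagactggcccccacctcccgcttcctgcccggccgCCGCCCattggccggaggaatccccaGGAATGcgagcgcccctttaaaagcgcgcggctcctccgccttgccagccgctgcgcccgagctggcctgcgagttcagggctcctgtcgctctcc
TNC: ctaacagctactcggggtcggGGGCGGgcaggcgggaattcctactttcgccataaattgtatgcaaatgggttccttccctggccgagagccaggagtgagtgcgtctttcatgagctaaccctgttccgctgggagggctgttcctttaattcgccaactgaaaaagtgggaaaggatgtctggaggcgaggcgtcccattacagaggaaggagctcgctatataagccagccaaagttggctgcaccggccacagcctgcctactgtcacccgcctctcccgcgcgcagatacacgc
SPARC: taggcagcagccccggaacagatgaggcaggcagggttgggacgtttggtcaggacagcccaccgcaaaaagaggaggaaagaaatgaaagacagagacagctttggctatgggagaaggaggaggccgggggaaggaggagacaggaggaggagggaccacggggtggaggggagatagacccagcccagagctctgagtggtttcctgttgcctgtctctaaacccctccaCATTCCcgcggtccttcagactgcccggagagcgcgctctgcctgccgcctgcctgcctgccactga
SPP1: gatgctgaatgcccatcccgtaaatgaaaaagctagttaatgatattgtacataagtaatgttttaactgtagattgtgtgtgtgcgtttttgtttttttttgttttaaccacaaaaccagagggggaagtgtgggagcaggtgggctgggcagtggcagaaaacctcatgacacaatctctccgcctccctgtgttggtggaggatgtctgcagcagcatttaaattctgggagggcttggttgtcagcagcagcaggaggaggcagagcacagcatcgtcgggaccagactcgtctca

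The THBS1 window held 4 matches to the SP1 motif and 1 to the TEAD motif, with the TEAD match starting at position -46 from the gene start, the TNC window 1 match to the SP1 motif and the SPARC window 1 to the TEAD motif at -17 on the opposite strand. The SPP1 window held 0 matches. Members that were not called held matches too: the FN1 window held 6 and the TGFBI window 4, all to the SP1 motif. The THBS3 windows held 1 and 2, also to the SP1 motif, and the windows of the untested THBS2 and POSTN held 3 each. Among 35116 promoter windows of the same length, 45% held the SP1 letters, 14% the TEAD letters, 11.5% the TATA box letters and 7.71% the AP-1 letters. These matches are letters in a window and say nothing about binding. In all, 9 of the 10 names had an entry, and SPOCK1, the other member that rose, had none.

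The libraries and the target were checked first. Read counts recovered from the equalised values totalled 17117659 and 14700669 in the SLFN5 siRNA libraries and 31905328 and 13187517 in the controls, a depth 2.42 times as large in Control 1 as in Control 2. SLFN5 stood at 167 and 118 equalised counts in the SLFN5 siRNA libraries, against 420 and 353 in the controls (log2 change -1.45, SE 0.21, limma adjusted p = 0.000524). The renal lineage factor PAX8 was present in every library (3994 and 3392 equalised counts with SLFN5 siRNA, 4129 and 3726 in controls). By contrast, the tubule or clear cell markers CA9, AQP1 and LRP2 had 4, 7 and 0 reads over the 4 libraries. The AQP1 name also belongs to another entry, ENSG00000250424, whose reads are not counted here. Of the 11 renal or line markers 8 were tested, with 1 higher (CUBN) and 2 lower (VIM and CDH2). Of 8 fibroblast markers 4 were tested and 1 was lower (PDGFRB), and the list summed to 111 and 86.5 equalised counts with SLFN5 siRNA and 191 and 121 in controls. The fibroblast genes DCN, COL3A1, COL1A2 and FAP had 1, 1, 6 and 1 reads over the 4 libraries, whereas LUM had 257, COL1A1 202, PDGFRB 76 and PDGFRA 43. LUM stood at 45.9 and 27.2 equalised counts with SLFN5 siRNA and 90.7 and 54.0 in controls and did not pass (limma adjusted p = 0.0789). Endothelial markers summed to 9.22 and 12.6 with SLFN5 siRNA and 5.23 and 14.8 in controls (PECAM1 0 reads), and leukocyte markers to 61.3 and 43.5 against 40.2 and 39.1 (PTPRC 1 read, CSF1R 109 and ITGAM 64). ITGAM had a log2 change of 1.96 that did not pass (limma adjusted p = 0.0559). What part these marker levels have in the results was not tested. In bulk RNA, fewer cells of a type and less RNA per cell cannot be told apart.

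Thrombospondin-1 (THBS1, ENSG00000137801), which inhibits angiogenesis and activates latent TGF-beta, had the largest change of the tested members. It stood at 2861 and 2438 equalised counts in the SLFN5 siRNA libraries, against 14675 and 15289 in the controls. Both SLFN5 siRNA libraries lay far below both controls, and the difference between the groups exceeded the spread within either of them many times over. The means were 2650 ± 300 with SLFN5 siRNA and 14982 ± 434 in controls (SD, n = 2 each), a log2 change of -2.50 (SE 0.11, 95% interval -2.75 to -2.25, limma adjusted p = 4.21e-07), or 0.176 of the control level. Of the 15640 tested genes, 26 had a more negative log2 change, and 24 of those passed the threshold. Per kilobase of merged exons, THBS1 ranked 2985 among 15118 tested genes with a length after SLFN5 siRNA and 576 in controls. Of the 600 other genes that reached at least its per-kilobase level in either group, 0 were called with a larger fall. A stretch of 448 bases, or 4.89% of the THBS1 exons, overlaps FSIP1, a protein-coding gene on the opposite strand. FSIP1 averaged 9.82 equalised counts with SLFN5 siRNA and 21.3 in controls. The antisense gene AC037198.2, which is not among the listed genes, overlaps 411 bases (4.49%).

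Neither of the other thrombospondins was called. THBS2, a close relative of thrombospondin-1 with its own antiangiogenic activity, had 0 reads in both SLFN5 siRNA libraries and 1 and 0 reads in Control 1 and Control 2. Those zeros allow up to 3 reads, or 3.07 and 3.49 equalised counts, in SLFN5 siRNA 1 and 2, so no difference was detectable at this depth. THBS3, a pentameric member of the family found in skeletal tissues, stood at 114 and 87.5 equalised counts in the SLFN5 siRNA libraries, against 69.5 and 42.1 in the controls. The groups did not overlap, which was true of 64.6% of all tested genes, but the gap between them was smaller than the distance between the libraries of either group. Its log2 change was 0.87 (SE 0.32, 95% interval 0.18 to 1.57) and did not pass (limma adjusted p = 0.0589). That change was 1.23 without Control 1 and 0.52 without Control 2. A fit that leaves out a library keeps 1 library in a group, so its variance rests on the other group and the intensity trend. Whether a gene passed in such a fit, here or below, therefore says little about that gene's own spread. THBS3 exons overlap the antisense gene AC234582.1 over 22.2% of their length and MTX1, a mitochondrial import gene at 462 (SLFN5 siRNA) and 513 (control) mean equalised counts, over 3.16%. The library kit does not mark strand, so reads in those stretches cannot be assigned to either gene. Of the other family genes listed, THBS4, COMP, TNR, TNXB and TNN, 0 of 5 were tested, with 24, 0, 4, 12 and 2 reads over the 4 libraries.

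Tenascin C (TNC, ENSG00000041982), an adhesion-modulating hexamer of embryonic, wounded and tumour stroma, stood at 1207 and 1409 equalised counts in the SLFN5 siRNA libraries, against 3841 and 4727 in the controls. Both SLFN5 siRNA libraries again lay below both controls, with a wider spread among the controls. The means were 1308 ± 142 with SLFN5 siRNA and 4284 ± 627 in controls (SD, n = 2 each), a log2 change of -1.71 (SE 0.13, 95% interval -2.0 to -1.42, limma adjusted p = 1.17e-05), or 0.306 of the control level. TNC ranked 5539 per kilobase after SLFN5 siRNA and 2143 in controls. The falls of THBS1 and TNC passed under each of the 14 alternative settings tried for each. Without the intensity trend in the variance they did so narrowly (limma adjusted p = 0.0420 for each).

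**Figure D1:**
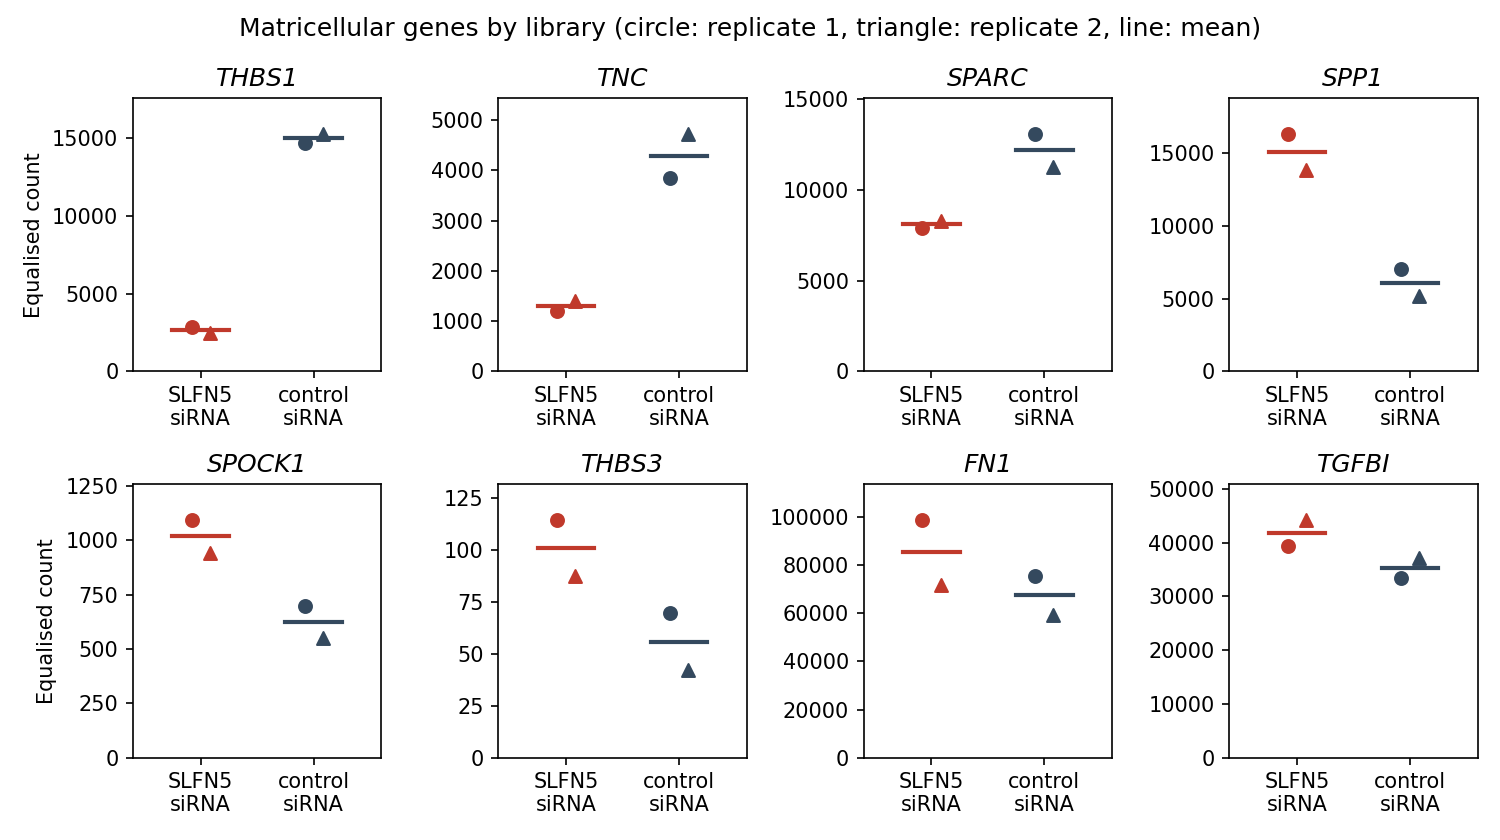
Equalised counts (linear axes from 0) of the 8 tested genes in the SLFN5 siRNA libraries (red) and the control libraries (dark blue). Circles are replicate 1, triangles replicate 2 and lines the group means; THBS1, TNC and SPARC are lower in both SLFN5 siRNA libraries, SPP1 and SPOCK1 are higher, and the FN1 groups overlap.

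SPARC is a calcium-binding glycoprotein, and the relatives followed here carry a SPARC-like domain. SPARC (osteonectin, ENSG00000113140), a counter-adhesive collagen-binding protein, stood at 7884 and 8308 equalised counts in the SLFN5 siRNA libraries, against 13095 and 11246 in the controls. The groups did not overlap, and the SLFN5 siRNA libraries lay closer together than the controls. The means were 8096 ± 299 with SLFN5 siRNA and 12171 ± 1307 in controls (SD, n = 2 each), a log2 change of -0.58 (SE 0.11, 95% interval -0.83 to -0.34, limma adjusted p = 0.00266). This fall kept its direction whichever library was left out (log2 changes from -0.69 to -0.47). It did not pass without the intensity trend in the variance (limma adjusted p = 0.0829).

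Testican-1 (SPOCK1, ENSG00000152377), a proteoglycan with a SPARC-like domain, went the other way. It stood at 1094 and 943 equalised counts in the SLFN5 siRNA libraries, against 698 and 550 in the controls. Both SLFN5 siRNA libraries lay above both controls. The means were 1018 ± 107 with SLFN5 siRNA and 624 ± 104 in controls (SD, n = 2 each), a log2 change of 0.71 (SE 0.15, 95% interval 0.38 to 1.05, limma adjusted p = 0.00491). It too kept its direction whichever library was left out (log2 changes from 0.54 to 0.88) and missed the threshold without the intensity trend (limma adjusted p = 0.0874).

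FSTL1, a secreted glycoprotein with a SPARC-type domain, was the 1 tested gene of the 6 other SPARC family genes listed and fell. It stood at 10693 and 12241 equalised counts in the SLFN5 siRNA libraries, against 22352 and 21899 in the controls (log2 change -0.95, SE 0.11, limma adjusted p = 0.000125). SPARCL1, SPOCK2, SPOCK3, SMOC1 and SMOC2 had 0, 10, 2, 1 and 4 reads over the 4 libraries.

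Fibronectin (FN1, ENSG00000115414), the main adhesive glycoprotein of provisional matrix, ranked 138 per kilobase after SLFN5 siRNA and 212 in controls and did not pass. It stood at 98876 and 71997 equalised counts in the SLFN5 siRNA libraries, against 75695 and 59393 in the controls. The groups overlapped, and in each group replicate 1 was higher than replicate 2. The means were 85437 ± 19006 with SLFN5 siRNA and 67544 ± 11527 in controls (SD, n = 2 each), a log2 change of 0.33 (SE 0.17, 95% interval -0.04 to 0.70, limma adjusted p = 0.165). The value varied with the library left out. It was 0.10 without SLFN5 siRNA 1 and 0.16 without Control 2, but 0.56 without SLFN5 siRNA 2 and 0.51 without Control 1. Each such fit left 1 library without its same-numbered counterpart. Each SLFN5 siRNA library stood above the control library of the same number.

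TGFBI (ENSG00000120708), a secreted integrin ligand named for its induction by TGF-beta, stood at 39402 and 44205 equalised counts in the SLFN5 siRNA libraries, against 33362 and 37116 in the controls. The groups did not overlap, but the gap between them was smaller than the distance between the libraries of either group. The means were 41804 ± 3396 with SLFN5 siRNA and 35239 ± 2655 in controls (SD, n = 2 each), a log2 change of 0.25 (SE 0.12, 95% interval -0.02 to 0.51, limma adjusted p = 0.149). Periostin (POSTN), its closest relative and a product of activated fibroblasts, had 0 reads in both SLFN5 siRNA libraries and 0 and 1 reads in Control 1 and Control 2, too few to compare.

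Osteopontin (SPP1, ENSG00000118785), a secreted phosphoprotein with an integrin-binding RGD motif, had the largest rise of the tested members. It stood at 16348 and 13817 equalised counts in the SLFN5 siRNA libraries, against 7029 and 5155 in the controls. Both SLFN5 siRNA libraries lay well above both controls. The means were 15083 ± 1790 with SLFN5 siRNA and 6092 ± 1325 in controls (SD, n = 2 each), a log2 change of 1.32 (SE 0.15, 95% interval 1.00 to 1.64, limma adjusted p = 9.56e-05), a 2.50-fold rise. It passed under each of the 14 alternatives, with log2 changes from 1.10 to 1.54, but narrowly without the intensity trend in the variance (limma adjusted p = 0.0484). Over all tested genes, 556 had a larger rise, and 445 of those passed the threshold. Of the 128 other genes that reached at least its per-kilobase level, set by its SLFN5 siRNA mean, in either group, 0 were called with a larger rise. The other phosphoprotein genes of its chromosomal family, IBSP, DMP1, MEPE and DSPP, had 0, 1, 4 and 3 reads over the 4 libraries.

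**Figure D2:**
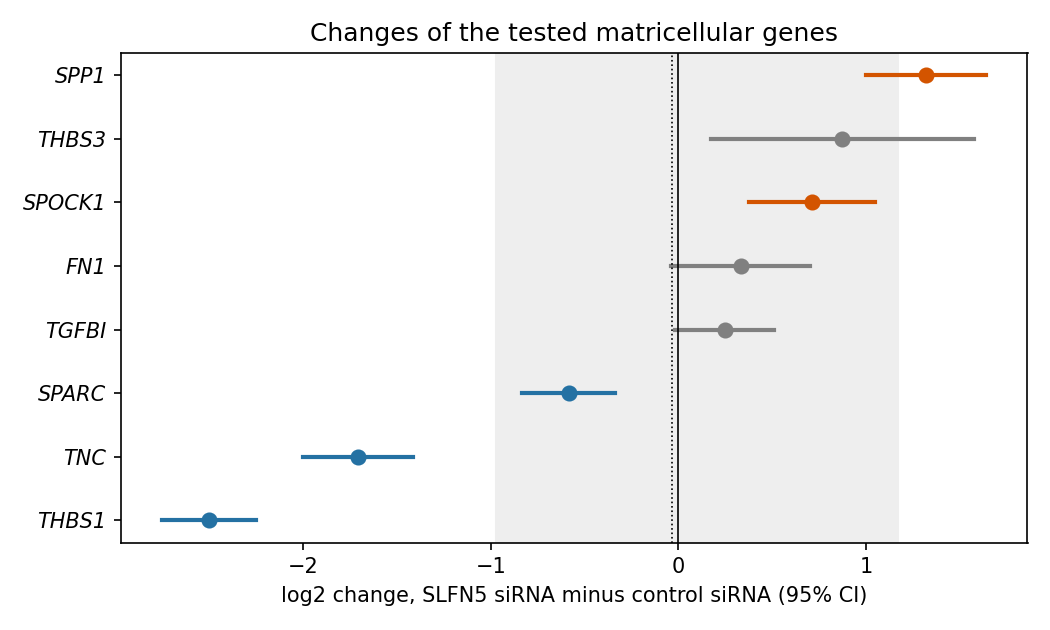
Log2 change (SLFN5 siRNA minus control) of the 8 tested genes with 95% intervals, blue where lower, orange where higher and grey where the threshold was not passed. The shaded band spans the 5th to the 95th percentile of all tested genes (-0.97 to 1.17) and the dotted line is their median (-0.03); THBS1 and TNC lie left of the band and SPP1 right of it.

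The order of the members' levels differed between the groups. Per kilobase of merged exons, after SLFN5 siRNA SPP1 averaged 6498 equalised counts, TGFBI 5353, FN1 4934, SPARC 1676, THBS1 289, SPOCK1 164, TNC 136 and THBS3 21.8. In controls TGFBI averaged 4512, FN1 3901, SPP1 2625, SPARC 2519, THBS1 1636, TNC 445, SPOCK1 100 and THBS3 12.1 on the same scale. In the SLFN5 siRNA libraries TGFBI and FN1 exchanged places between libraries (TGFBI 5045 and 5660, FN1 5710 and 4158 per kilobase), as they did in the controls (TGFBI 4272 and 4752, FN1 4372 and 3430), so these neighbours did not differ beyond their spread. SPP1 and SPARC lay apart with SLFN5 siRNA (SPP1 7044 and 5953, SPARC 1632 and 1720) but overlapped in controls (SPP1 3029 and 2221, SPARC 2711 and 2328). Merged exons take in every annotated transcript, so a gene with long rare isoforms is placed too low.

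**Figure D3:**
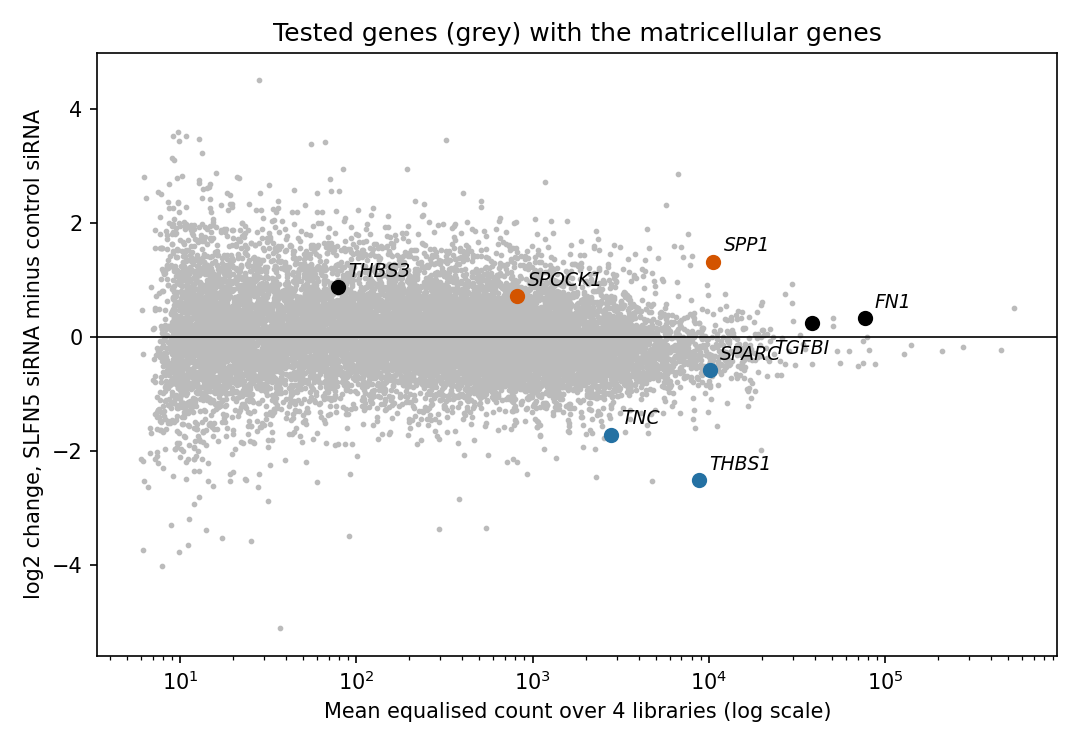
Log2 change (SLFN5 siRNA minus control) against the mean equalised count over 4 libraries (log axis) for all 15640 tested genes in grey, with the 8 tested members named (blue lower, orange higher, black not past the threshold). THBS1 at -2.50 lies at the lower edge of the genes of similar count and SPP1 at 1.32 near the upper edge, while FN1 and TGFBI stand at the right near 0.

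CCN proteins, a matricellular family related in function, had 2 of 3 tested genes lower and 0 higher. Over all tested genes, 16.3% were lower and 13.3% higher. CTGF stood at 107 and 69.2 equalised counts in the SLFN5 siRNA libraries, against 202 and 214 in the controls (log2 change -1.26, SE 0.25, limma adjusted p = 0.00343). Without the intensity trend in the variance CTGF did not pass (limma adjusted p = 0.0604), nor did CYR61 (0.116). CYR61 also missed the threshold with libraries thinned to the shallowest and scaled by library totals (limma adjusted p = 0.0553). CYR61 fell less, to 939 and 780 with SLFN5 siRNA against 1167 and 1447 in controls (log2 change -0.60, limma adjusted p = 0.0102), and did not pass without SLFN5 siRNA 2 (0.0580) or Control 2 (0.110). Of 19 other provisional matrix and fibulin genes 12 were tested, with 1 higher, 3 lower and a median log2 change of -0.04, against -0.03 over all tested genes. Without the intensity trend this list had 0 higher and 2 lower. The lower genes were ECM1 (log2 change -1.16, limma adjusted p = 0.00773), the microfibril component LTBP2 (-0.99) and the fibulin EFEMP1 (-0.83), and fibrillin-1 (FBN1) was higher (1.00). ECM1 did not pass without Control 1 (adjusted p = 0.0774), nor FBN1 without Control 1 (0.114) or SLFN5 siRNA 2 (0.0907). LGALS1, the galectin with the highest count of this list, stood at 26880 and 24693 with SLFN5 siRNA and 25240 and 27119 in controls, and the groups overlapped.

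Receptors of these proteins changed in both directions, with 6 of 21 tested genes higher and 5 lower (median log2 change 0.14). Over all tested genes, 13.3% were higher and 16.3% lower. Without the intensity trend in the variance the receptors had 2 higher and 1 lower. Syndecan-2 (SDC2), a heparan sulfate proteoglycan co-receptor, stood at 719 and 827 equalised counts in the SLFN5 siRNA libraries, against 2452 and 2386 in the controls (log2 change -1.65, SE 0.12, limma adjusted p = 1.03e-05). Syndecan-1 (SDC1) went the other way, at 3438 and 3145 with SLFN5 siRNA and 1732 and 1692 in controls (log2 change 0.94, limma adjusted p = 0.000136). The receptor phosphatase PTPRB rose by 1.53 on the log2 scale and LRP1, an endocytic receptor that clears thrombospondins, by 1.11, which did not pass without SLFN5 siRNA 1 (0.70, adjusted p = 0.0676). CACNA2D1, described in mice as a neuronal thrombospondin receptor, fell by 0.95. The thrombospondin-1 receptor CD47 had a log2 change of -0.41 (limma adjusted p = 0.0190) and the osteopontin receptor CD44 one of -0.38 (0.0351), and each missed the threshold in 3 of the 4 fits that left out a library. The integrin subunits ITGAV and ITGB1, shared by receptors for fibronectin and osteopontin, had log2 changes of 0.04 and 0.12 and did not pass (limma adjusted p = 0.803 and 0.486). SDC1, CD47, CD44 and ITGAV were chosen after their values were seen.

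Of the enzymes that process or crosslink these proteins, 4 of 10 tested were higher and 1 lower (median log2 change 0.31), where 13.3% of all tested genes were higher and 16.3% lower. Without the intensity trend in the variance the list had 0 higher and 1 lower. ADAMTS1, a metalloprotease that can cleave thrombospondins, stood at 1863 and 1524 equalised counts in the SLFN5 siRNA libraries, against 3495 and 4261 in the controls (log2 change -1.20, SE 0.14, limma adjusted p = 0.000108). The lysosomal protease CTSD rose by 0.91, the kinase FAM20C, which phosphorylates osteopontin, by 0.76, and the transglutaminase TGM2, which crosslinks fibronectin, by 0.65. FAM20C did not pass without SLFN5 siRNA 1 (adjusted p = 0.0706) or Control 2 (0.105).

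Of 15 tested genes of the TGF-beta pathway, 1 was higher and 3 lower (median log2 change 0.06), against 13.3% and 16.3% of all tested genes. Without the intensity trend in the variance this list had 1 higher and 1 lower. The ligand TGFB2 stood at 999.8 and 845 equalised counts in the SLFN5 siRNA libraries, against 3436 and 3717 in the controls (log2 change -1.96, SE 0.12, limma adjusted p = 4.36e-06). TGFB1 overlapped between the groups, at 246 and 190 with SLFN5 siRNA and 257 and 199.7 in controls (chosen after its values were seen). The feedback inhibitor SMAD7 had a log2 change of -0.55 (adjusted p = 0.00763), not past without Control 2 (0.0642), and TGFBR3 (-0.90) and LTBP1 (1.32) did not pass in any fit that left out a library. Among transcription factors linked to matrix genes, 4 of 22 tested were higher and 6 lower (median log2 change -0.16). Without the intensity trend these were 2 higher and 1 lower. TEAD1 fell by 0.97 and its coactivator WWTR1 by 0.68, while the related coactivator YAP1 stood at 2185 and 2262 with SLFN5 siRNA and 1235 and 1177 in controls (log2 change 0.88, limma adjusted p = 0.000241). MKL2 rose by 0.86, and JUND had a log2 change of 0.84 that did not pass without SLFN5 siRNA 1 (0.43, adjusted p = 0.268) or Control 2 (0.44, adjusted p = 0.124). Over all lists, 37 of 84 tested genes passed, where 29.6% of all tested genes did. The lists were chosen with earlier results of these data known, so nothing about matrix-linked genes is read from this count.

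**Figure D4:**
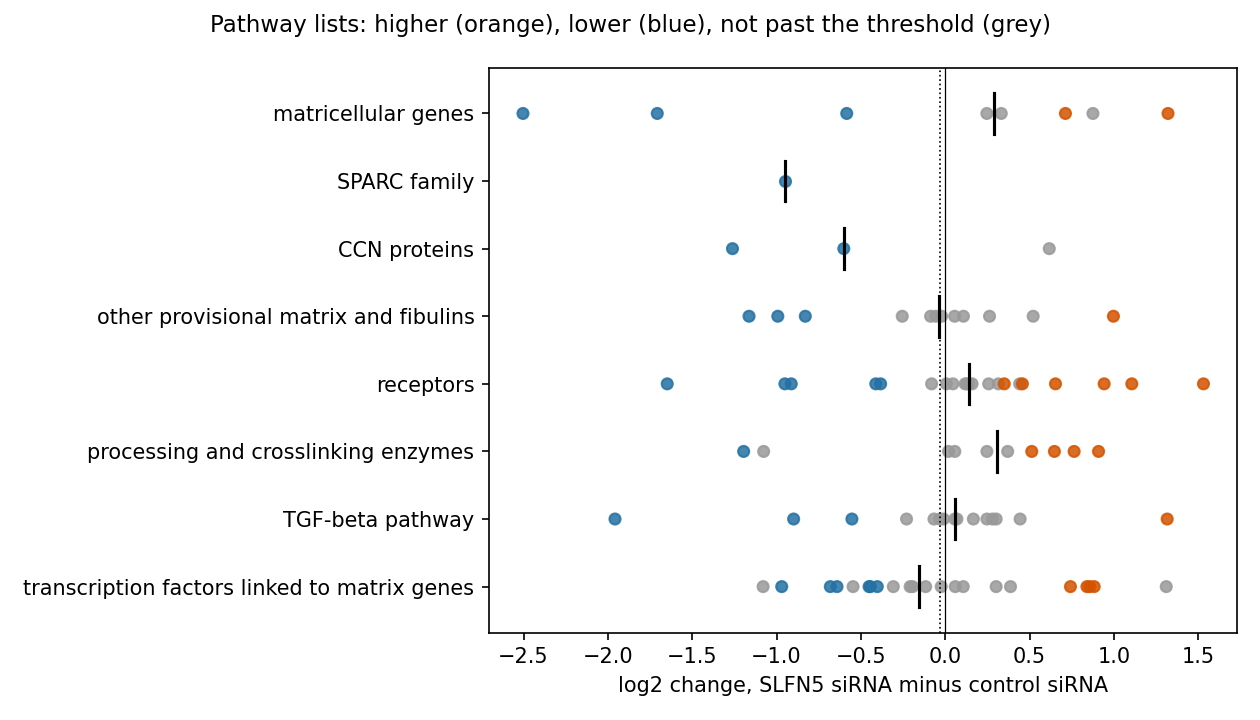
Log2 change (SLFN5 siRNA minus control) of each tested gene in the matricellular set and 7 lists of related genes, orange where higher, blue where lower and grey where the threshold was not passed, with the list median as a black bar and the median of all tested genes as a dotted line. Each of the 4 lower lists, from receptors to transcription factors, holds called genes on both sides of 0.

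The tested genes whose 4 values lay closest to those of THBS1, by the root mean square difference of log2 values centred on the controls, were UHMK1 (0.10), SGCE (0.10), ANKRD1 (0.25), PSAT1 (0.29) and PRKCE (0.31), out of 10540 genes compared. UHMK1 stood at 1387 and 1418 equalised counts in the SLFN5 siRNA libraries, against 7723 and 8441 in the controls, and SGCE, the epsilon-sarcoglycan gene, at 312 and 280 against 1648 and 1499. Closest to TNC were SLC7A11 (0.09), POLR3G (0.10), CD83 (0.10), NUDT21 (0.11) and CRKL (0.11). NUDT21, a cleavage factor of 3' end processing, stood at 1622 and 1551 with SLFN5 siRNA and 4663 and 5470 in controls, and the adaptor CRKL at 1028 and 1049 against 3101 and 3334. With 4 libraries this likeness describes little beyond a fall of similar size.

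**Figure D5:**
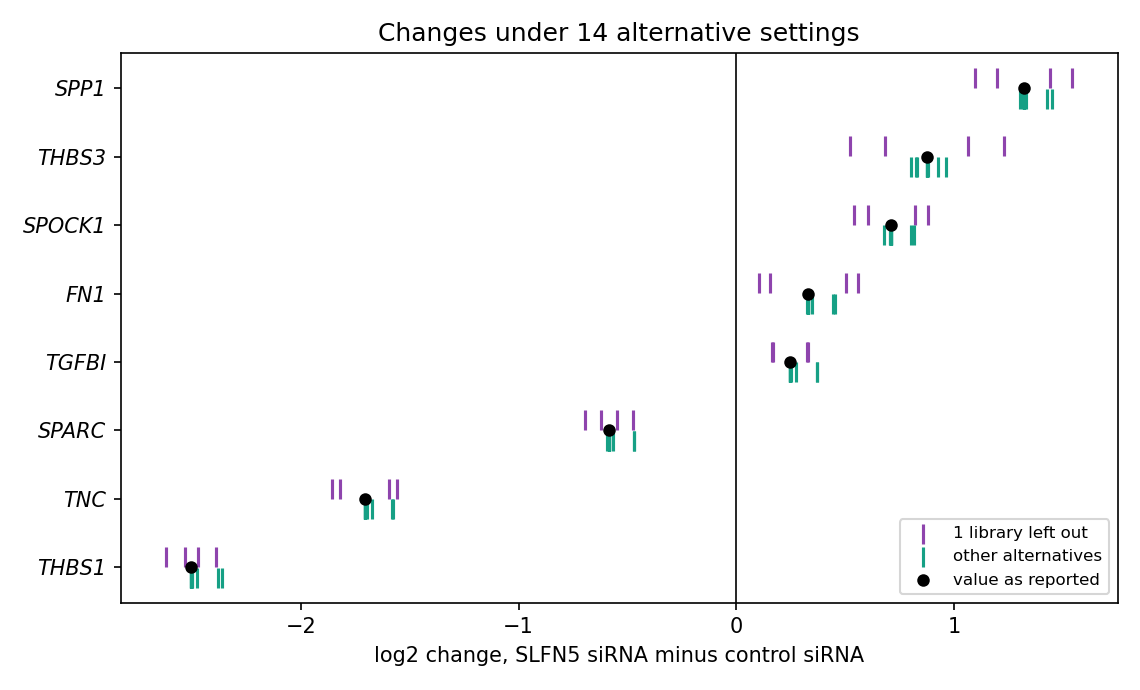
Log2 change (SLFN5 siRNA minus control) of the 8 tested genes as reported (black), with each library left out in turn (purple ticks) and under the other alternatives (green ticks). No value crosses 0; FN1 ranges from 0.10 to 0.56, THBS3 from 0.52 to 1.23 and THBS1 from -2.62 to -2.36.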

How the data were processed

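The deposited table holds a non-negative signal for each gene, made by the authors from reads with hg19 and edgeR, per the submitters' processing notes; no source used here names the aligner, the counter or the annotation release. The values lie where the authors' tool, edgeR, would put counts equalised to one library size. Inverting that adjustment (common dispersion 0.0162) gave whole counts for all 230636 values (tolerance 1e-06), which served for depth and scaling alternatives. Genes reaching a value of 10 in 2 or more libraries were tested with limma 3.58.1 (R 4.3.3) on log2(value + 1), with an intensity trend and Benjamini-Hochberg adjustment over all 15640 tested genes; the scripts were tested on simulated data. Fold changes on this scale understate those of low genes. Exon lengths and overlaps came from GENCODE v29 (GRCh38), used for lengths and neighbours only, in place of the planned coding lengths. A zero count was read as allowing 3 reads, for counting error only. Members and lists were chosen with earlier results of these data known. The text names every member, SLFN5, up to 4 called genes of each list with the largest change and groups apart, the gene of highest count in each list, and the 5 genes nearest to THBS1 and to TNC; others are marked as chosen later.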

Additional observations from a re-analysis of the deposited data

How the results depend on the processing

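Of the 14 alternatives, none reversed a member. The count of lower members was 3 under every one except without the intensity trend (2). The count of higher members was 2, against 1 without the intensity trend, 5 with library totals alone and 5 with the replicate block, and 2 to 4 with a library left out. Genes called higher and lower numbered 2086 and 2544, against 672 and 510 without the intensity trend, 1346 and 1588 without Control 2, and 2526 and 1587 with libraries thinned to the shallowest. Library totals alone moved the median of all genes from -0.03 to 0.08 and thinning moved it to 0.09. The share of calls that were higher was 60.6% and 61.4%, against 45.1% as reported. The thinned counts were also scaled by library totals, so that setting cannot tell depth from scaling. With library totals, THBS3 (log2 change 0.93), FN1 (0.45) and TGFBI (0.37) also passed. Over the fits that left out a library, genes higher ranged from 1346 to 1767, genes lower from 1588 to 2341. The replicate block used the replicate numbers, which match the codes shared across groups in the sample titles, of unstated meaning; deviations of same-numbered libraries correlated at 0.37 over 10541 genes (2 pairs), and with the block FN1 (adjusted p = 0.00242), TGFBI (0.0135) and THBS3 (0.0111) also passed and 6703 genes were called, against 4630. Of 37 called list genes, 25 did not pass without the intensity trend. The cause was not tested for any of these. Depth limits THBS2 and POSTN, at 1 read each over the 4 libraries.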

Other observations

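Ratios between members within a library do not depend on library scaling. Per kilobase of merged exons, SPP1 stood at 22.5 and 22.4 times THBS1 in the SLFN5 siRNA libraries, against 1.89 and 1.33 times in the controls. SPP1 was 4.32 and 3.46 times SPARC with SLFN5 siRNA and 1.12 and 0.954 times in controls. THBS1 was 0.0547 and 0.0640 of FN1 with SLFN5 siRNA and 0.367 and 0.487 in controls, and TNC 0.0219 and 0.0352 of FN1 against 0.0912 and 0.143. The groups did not overlap in any of these 4 ratios. Each ratio holds a member already called above in the same libraries, so this separation adds nothing to those calls. The TGFBI to FN1 ratio overlapped, at 0.883 and 1.36 with SLFN5 siRNA and 0.977 and 1.39 in controls, and varied more between replicates of a group than between the groups.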
